A study of Mus musculus with 2 samples.

Results

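The nuclear-encoded subunit genes of the mitochondrial respiratory chain and of ATP synthase were described in 3 populations sorted from mouse small intestinal epithelium. They were taken by symbol from the platform's probe annotation, as every gene whose symbol begins with Nduf, Uqcr, Atp5 or Cox followed by a digit from 4 to 8, together with Sdha, Sdhb, Sdhc, Sdhd and Cyc1. This gave 80 genes with 81 probes, of 16390 named genes in all. By complex there were 34 genes of complex I, 4 of complex II, 8 of complex III, 16 of complex IV and 15 of complex V. The rule also took 3 genes that encode no subunit in these complexes. They are Ndufaf1, an assembly factor of complex I, Cox4nb (current symbol Emc8) and Atp5s (current symbol Dmac2l). Cox4nb encodes a subunit of the endoplasmic reticulum membrane protein complex. The values of these genes are given apart from the complexes, but they are kept in the counts and medians of all members. Subunits encoded by mitochondrial DNA have other symbols and were not analysed here.

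All cells came from mice that carried an Atoh1-crePGR, an Lgr5-EGFP-IRES-creERT2 and a Rosa26-tdTomato allele, and whose age the labels do not give. All of these mice received RU486 intraperitoneally on 5 consecutive days, which activates the Cre made under Atoh1, a transcription factor of the secretory lineage, and leaves tdTomato on in recombined cells and their progeny. Cells were sorted 20 days after recombination from material pooled from 4 mice, and each sorted fraction was 1 biological replicate. The double-positive population carried EGFP and tdTomato, the tdTomato-only population carried tdTomato without EGFP, and the EGFP-only population carried EGFP without tdTomato. EGFP reports the Lgr5 locus, which marks stem cells at the crypt base. This Lgr5 allele is known to be expressed in only some crypts, so absence of EGFP does not exclude Lgr5 in a cell. On the first array the double-positive RNA (Cy3) was hybridised with the EGFP-only RNA (Cy5), and on the second array the tdTomato-only RNA (Cy3) with the EGFP-only RNA (Cy5). The dyes were not swapped, so population and dye cannot be told apart in either comparison with EGFP only. There was 1 array for each comparison and no test was possible, so the values below come without replicate errors and p-values.

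The respiratory chain passes electrons from NADH (complex I) or succinate (complex II) through ubiquinone to complex III, through cytochrome c to complex IV and then to oxygen. Complexes I, III and IV pump protons across the inner mitochondrial membrane, and ATP synthase (complex V) uses the returning protons to make ATP. In the crypt, Lgr5 stem cells are known for active mitochondria and neighbouring Paneth cells for glycolysis.

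Between 67.0% and 77.1% of 23473 probes were above background in the 4 channels, that is, brighter than the mean plus 2 SD of the blank spots. Both arrays measured the EGFP-only population, and its log2 values differed with an SD of 0.083 over 15639 probes. This is a technical spread, and the labels do not say whether 1 extract served both arrays. Markers of the sorted cells differed far more than that. The log2 ratio to EGFP only had a median of 4.90 in double-positive and 4.62 in tdTomato-only cells over the 5 of 7 listed Paneth markers that were measured. The 8 measured stem cell markers had a median of −0.64 in double-positive cells, and the 7 measured on the second array had −1.22 in tdTomato-only cells. Lgr5 itself was at 0.26 in double-positive (−0.26 with median centring in place of loess) and −0.89 in tdTomato-only cells. Lymphocyte markers, listed because a sort of epithelium can hold intraepithelial T cells, were all above 0, with medians of 3.08 in double-positive and 1.73 in tdTomato-only cells over 6 of 7 genes. Cd3e, the defining gene of that list, was not above background in any channel, while Cd3g was at 2.70 in double-positive and 1.46 in tdTomato-only cells. Of the epithelial markers Epcam was bright in all 4 channels, while Krt19 was not above background. Whether the dim reading of such genes comes from their probes was not tested. In bulk samples fewer cells of a type and less RNA per cell cannot be told apart, and the part of the cell mixture in the values below was not tested.

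Most of the 80 genes were among the brightest on the arrays. No spot of theirs was saturated, and the brightest was Atp5g3, one of the genes for the c subunit of the ATP synthase rotor, at 26845 in the EGFP-only channel of the first array. Spot brightness also depends on the probe, so it does not rank genes by their RNA. In the first comparison 66 of the 77 measured members lay in the brightest of 5 equal classes of the measured genes. Uqcrq, a small subunit of complex III, was not above background in any channel. The same held for Cox6a2 and Cox8c, the heart and skeletal muscle isoform and the testis isoform of complex IV subunits. Whether these genes had little RNA or their probes gave little signal was not tested. Ndufb2 was above background on the second array in the tdTomato-only channel alone, at 87.5 against 73.4 in EGFP only. The background limits of that array were 85.4 in Cy3 and 75.7 in Cy5, so both values lay near the limit. The lower bound computed for its ratio, 1.02-fold, is open to dye bias and is not read as a difference. Atp5j2 carried the scanner's quality mark on the second array and has no ratio there.

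**Figure D1:**
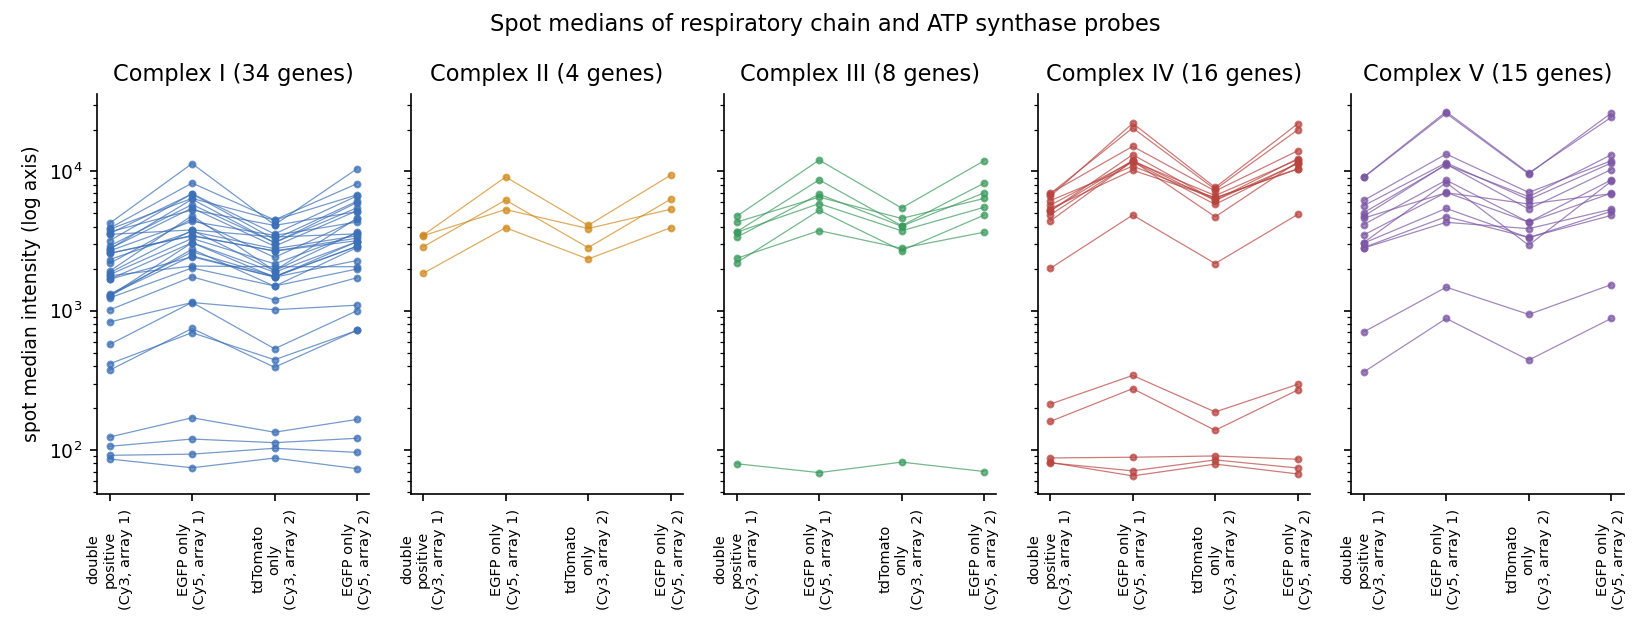
Spot median intensity (log axis) of each subunit probe in the 4 channels, with a line joining the channels for each probe and a panel for each complex. Most probes lie above 1000, the Cy5 (EGFP-only) channel is above the Cy3 channel for most of them on both arrays, and a few dim probes of complexes I, III and IV lie near 100.

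Against EGFP-only cells, no respiratory chain or ATP synthase gene differed by 2-fold in double-positive cells after loess normalization, which removes the dependence of the ratio on brightness within an array. Of 77 measured members, 0 were at least 2-fold higher (5.1% of all 11774 genes) and 0 at least 2-fold lower (0.34% of all genes). The median log2 ratio of the members was −0.15, against −0.01 over all genes, with a range from −0.79 to 0.77, and 54 of 77 members (70.1%) lay below 0, against 51.1% of all genes. At 1.5-fold, 1 member, Ndufa1, was higher (10.7% of all genes) and 2, Cox4i1 and Atp5o, were lower (4.12% of all genes).

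The tdTomato-only population gave a similar spread against EGFP only. Of 75 measured members, 0 were at least 2-fold higher (6.15% of all 11381 genes) and 0 at least 2-fold lower (1.19% of all genes). Their median log2 ratio was −0.10, against −0.01 over all genes, with a range from −0.85 to 0.66. Below 0 lay 49 members (65.3%), against 51.8% of all genes. At 1.5-fold, 2 members, Ndufa1 and Ndufb4, were higher (12.5% of all genes) and 2, Cox6b2 and Atp5g2, were lower (6.66% of all genes). The comparisons share the EGFP-only population, so their values are given side by side and not counted as separate support. Of the 75 members measured on both arrays, 49 lay below 0 on both, 22 above 0 on both and 4 on opposite sides, none of the 4 more than 0.13 from 0. The same counts over all genes are not given here. Agreement in sign is therefore not read as a trait of the members.

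The size of the shift below 0 depended on how brightness was handled. In the authors' deposited log2 ratios, which were centred without a correction for brightness, the members' median was −0.57 in double-positive over EGFP-only cells, against −0.03 over all genes. There 71 of 77 members (92.2%) lay below 0, against 51.6% of all genes, and 5 were at least 2-fold lower, against 3.57% of all genes. These were Cox4i1, Cox6a1, Atp5b, Atp5g3 and Atp5o. In tdTomato-only cells the deposited median was −0.56, against −0.08 over all genes, with 69 of 75 members (92.0%) below 0, against 53.9% of all genes, and 8 at least 2-fold lower, against 7.28% of all genes. They were Cox4i1, Cox6a1, Atp5b and Atp5g3 again, with Ndufa4, Cox6b2, Cox7c and Atp5g2. Of the members above 0 after loess, 17 of 23 in double-positive and 21 of 26 in tdTomato-only cells were below 0 as deposited. With median centring 22 of the 23 in double-positive and 25 of the 26 in tdTomato-only cells were below 0, and with quantile normalization 14 of the 23 in double-positive and 9 of the 26 in tdTomato-only cells. None was below 0 when the blank mean was subtracted before loess. That setting instead moved 4 members in double-positive and 10 in tdTomato-only cells from below 0 to above it. Median centring put 32 members at least 2-fold lower in double-positive cells, against 6.29% of all genes, and 16 in tdTomato-only cells, against 7.47% of all genes. Blank subtraction before loess put 1 member at least 2-fold lower in tdTomato-only cells, against 5.21% of all genes. Other bright genes were also below 0 in the deposited values, 63.4% of those in the brightest class in the first comparison and 65.9% in the second. Within the brightest class, the 66 members of the first comparison had a deposited median of −0.58 and the 2289 other genes −0.20, while after loess the medians were −0.12 for the members and 0.03 for the other genes. In the second comparison the 65 members of that class had a deposited median of −0.56 and the 2211 other genes −0.29, against −0.07 for the members and 0.01 for the others after loess. With the blank mean subtracted before loess, the members of that class had a median of −0.07 and the other genes 0.04 in the first comparison, while both had 0.02 in the second. With quantile normalization the medians were −0.36 for the members and −0.13 for the other genes in the first comparison, and −0.30 for the members and −0.15 for the other genes in the second.

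**Figure D2:**
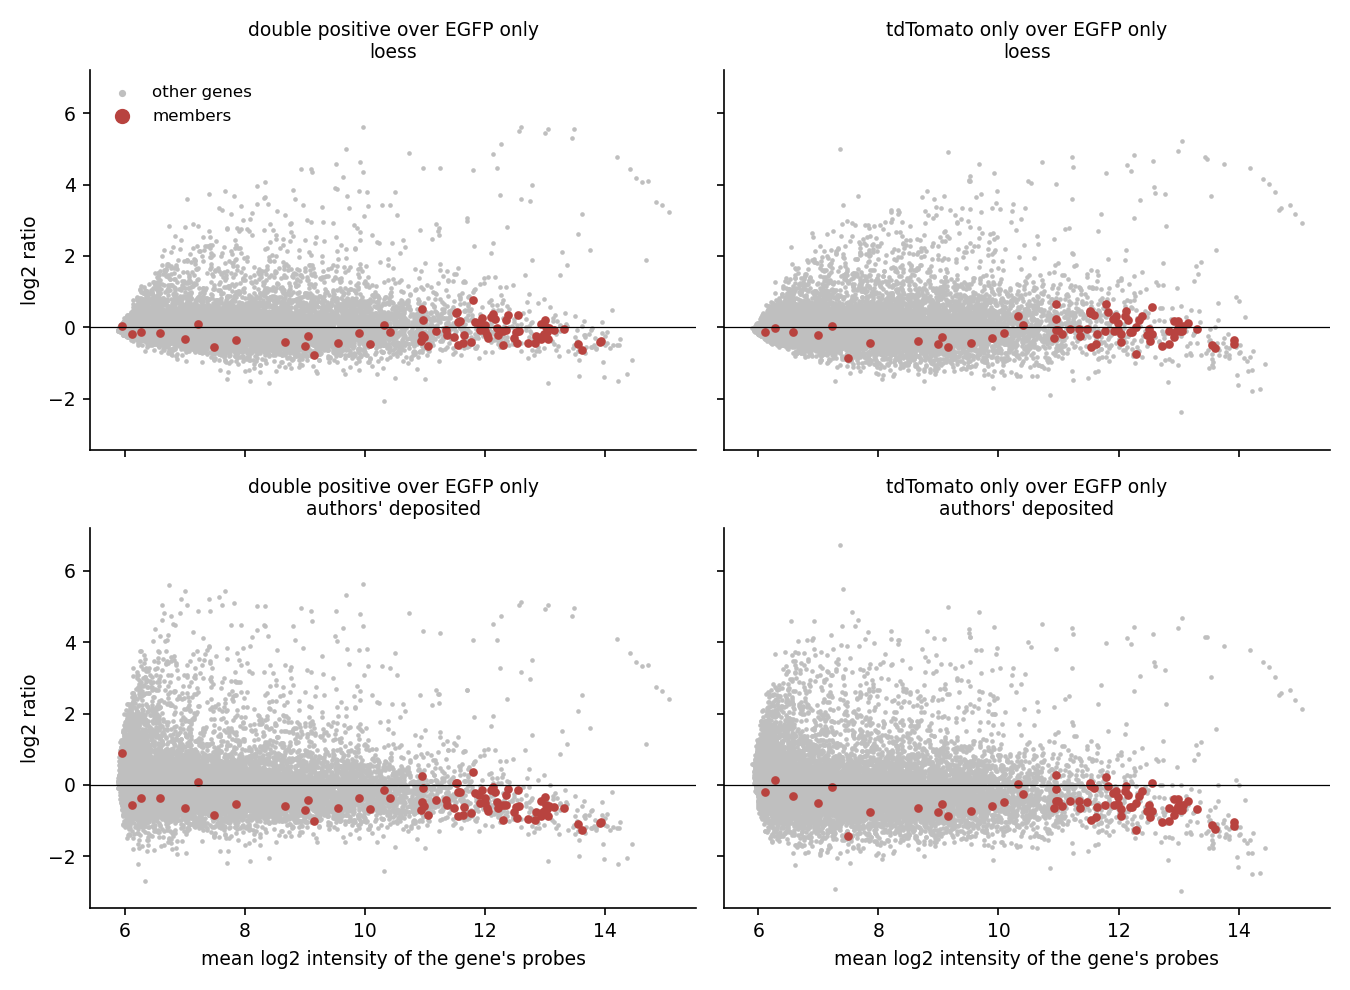
Log2 ratio of every measured gene against its mean log2 intensity, for the comparisons with EGFP only (columns), after loess (upper row) and as deposited by the authors (lower row). Members, in red, gather at the bright end; they straddle 0 with medians of −0.15 and −0.10 after loess, and lie mostly below 0 with medians of −0.57 and −0.56 in the deposited ratios.

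Complex I, which oxidises NADH, held the members with the highest ratios. Ndufa1, an X-linked accessory subunit needed for assembly of the complex, had a spot median of 3533 in the double-positive channel, against 3804 in EGFP only, and 3384 in the tdTomato-only channel, against 3563 in EGFP only. These Cy3 and Cy5 values were nearly level, whereas for most members Cy5 was well above Cy3. After loess its log2 ratio was 0.77 in double-positive cells (1.70-fold higher) and 0.66 in tdTomato-only cells, and the deposited ratios were 0.37 in double-positive and 0.22 in tdTomato-only cells. Ndufb4, an accessory subunit of the membrane arm, was the other member past 1.5-fold, in tdTomato-only cells, at 0.64, with 0.52 in double-positive cells. Ndufb4 had spot medians of 1782 in double-positive against 2093 in EGFP-only cells, and 2069.6 in tdTomato-only against 2071 in EGFP-only cells.

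Ndufs3, a core subunit of the arm that takes up electrons, had the third highest ratio of the complex in double-positive cells. Its ratios were 0.42 in double-positive and 0.40 in tdTomato-only cells. Ndufa6, an accessory subunit of the same arm, had 0.41 in double-positive and 0.45 in tdTomato-only cells. For both genes the deposited ratios were within 0.05 of 0, namely 0.05 in double-positive and −0.01 in tdTomato-only cells for Ndufs3, and 0.04 in double-positive and 0.04 in tdTomato-only cells for Ndufa6. Ndufa13, also known as a cell death regulator, had 0.38 in double-positive and 0.45 in tdTomato-only cells after loess.

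At the low end of complex I in double-positive cells stood Ndufs4, an accessory subunit whose loss in mice models Leigh syndrome. For Ndufs4 the spot medians were 1277 in double-positive against 3079 in EGFP-only cells, and 1742 in tdTomato-only against 3132 in EGFP-only cells. The loess log2 ratio was −0.53 in double-positive (1.44-fold lower) but −0.19 in tdTomato-only cells. Ndufb5 and Ndufc2, accessory subunits of the membrane arm, were low on both arrays, with Ndufb5 at −0.51 in double-positive and −0.47 in tdTomato-only cells, and Ndufc2 at −0.50 in double-positive and −0.55 in tdTomato-only cells. Ndufa4 had −0.43 in double-positive and −0.51 in tdTomato-only cells and the deposited ratios −0.96 in double-positive and −1.05 in tdTomato-only cells. Its symbol places it in complex I, while its protein is now assigned to complex IV.

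Over the whole of complex I the median was −0.12 in double-positive and −0.07 in tdTomato-only cells, over 34 and 33 measured genes. The 6 core subunits measured had medians of −0.16 in double-positive and −0.06 in tdTomato-only cells. The accessory subunits had −0.10 in double-positive cells, over 28 genes, and −0.07 in tdTomato-only cells, over 27. Within the core the values ran from −0.43 for Ndufs1, the largest iron-sulfur subunit, to the 0.42 of Ndufs3 in double-positive cells. Ndufv1, which binds NADH and the flavin, had −0.39 in double-positive and −0.29 in tdTomato-only cells. Ndufs5 had 2 probes, whose ratios lay within 0.5 of each other on both arrays, and their mean was 0.07 in double-positive and 0.32 in tdTomato-only cells. Ndufb2, one of the dimmest members, had the widest gap between the deposited ratio and the loess ratio on the first array, 0.89 against 0.02.

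Complex II, succinate dehydrogenase, had 4 genes, and 3 of them lay below 0 on both arrays. Of all genes, 51.1% lay below 0 after loess in double-positive and 51.8% in tdTomato-only cells. Sdha, the flavoprotein that oxidises succinate, had spot medians of 2874 in double-positive against 6228 in EGFP-only cells, and 2834 in tdTomato-only against 6322 in EGFP-only cells. The loess ratios of Sdha were −0.22 in double-positive and −0.40 in tdTomato-only cells. Sdhb, the iron-sulfur subunit, had −0.28 in double-positive and −0.04 in tdTomato-only cells. After loess Sdha thus had the lower ratio in tdTomato-only cells and Sdhb, by little, in double-positive cells. As deposited Sdha was the lower on both arrays. It had −0.66 in double-positive and −0.88 in tdTomato-only cells, against −0.64 and −0.47 for Sdhb. Of the membrane anchors that bind ubiquinone, Sdhd had −0.44 in double-positive and −0.38 in tdTomato-only cells, and Sdhc had 0.28 in double-positive and 0.31 in tdTomato-only cells after loess. In the deposited ratios Sdhc was below 0, at −0.15 in double-positive and −0.17 in tdTomato-only cells. The median of the complex was −0.25 in double-positive and −0.21 in tdTomato-only cells.

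Complex III, which passes electrons from ubiquinol to cytochrome c, had a median of −0.10 in double-positive and 0.00 in tdTomato-only cells over 7 measured genes. Cyc1, the heme-bearing subunit that hands electrons to cytochrome c, was the lowest in double-positive cells, at −0.40, with −0.11 in tdTomato-only cells. The spot medians of Cyc1 were 2208 in double-positive against 5256 in EGFP-only cells, and 2706 in tdTomato-only against 4856 in EGFP-only cells. The pair of core proteins lay on opposite sides of 0, with Uqcrc1 at −0.33 in double-positive and −0.26 in tdTomato-only cells and Uqcrc2 at 0.35 in double-positive and 0.33 in tdTomato-only cells. Uqcrh, the hinge protein beside the heme subunit, had −0.29 in double-positive and −0.20 in tdTomato-only cells. Uqcrfs1, the Rieske iron-sulfur protein, had 0.17 in double-positive and 0.33 in tdTomato-only cells, and Uqcrb, which helps to form the quinone-binding site, 0.23 in double-positive and 0.21 in tdTomato-only cells. Uqcr (current symbol Uqcr11) was near 0, at −0.10 in double-positive and 0.00 in tdTomato-only cells. In the deposited ratios all 7 lay below 0 on both arrays, against 51.6% of all genes in double-positive and 53.9% in tdTomato-only cells.

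Complex IV, cytochrome c oxidase, had the lowest median of the complexes in double-positive cells after loess, apart by little from that of complex II. It was −0.29 in double-positive and −0.12 in tdTomato-only cells over 14 measured genes, of which 12 and 11 lay below 0. Of all genes, 51.1% lay below 0 after loess in double-positive and 51.8% in tdTomato-only cells. Cox4i1, the main isoform of the subunit that binds ATP as a regulator, was the lowest in double-positive cells. Cox4i1 had spot medians of 6624 in double-positive against 22176 in EGFP-only cells, and 7676 in tdTomato-only against 21975 in EGFP-only cells. The loess ratios were −0.64 in double-positive (1.56-fold lower) and −0.57 in tdTomato-only cells, and the deposited ratios −1.27 in double-positive and −1.23 in tdTomato-only cells were past 2-fold.

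Cox6a1, the general isoform of a small regulatory subunit, had −0.47 in double-positive and −0.49 in tdTomato-only cells and was past 2-fold in the deposited ratios, at −1.10 in double-positive and −1.13 in tdTomato-only cells. Cox7c and Cox7a2l were also low on both arrays. Cox7c had −0.43 in double-positive and −0.46 in tdTomato-only cells, and Cox7a2l, which helps to join complexes III and IV into supercomplexes, had −0.44 in double-positive and −0.46 in tdTomato-only cells. The highest subunits were Cox6c, at 0.20 in double-positive and 0.18 in tdTomato-only cells, and Cox5a, the thyroid-hormone-binding subunit, at 0.09 in double-positive and 0.18 in tdTomato-only cells. In the deposited ratios all 14 measured genes of the complex lay below 0 on both arrays. Over all genes the deposited share below 0 was 51.6% in double-positive and 53.9% in tdTomato-only cells. Cox7a2 had −0.03 in double-positive and 0.03 in tdTomato-only cells, and Cox8a −0.05 in double-positive and −0.06 in tdTomato-only cells.

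The tissue-restricted isoforms of complex IV were dim. Cox6b2, known as the testis isoform, had spot medians of 160.3 in double-positive against 276 in EGFP-only cells, and 138 in tdTomato-only against 269.5 in EGFP-only cells. Its ratio was the lowest of all members in tdTomato-only cells, at −0.85 (1.80-fold lower), with −0.54 in double-positive cells, while the general isoform Cox6b1 had −0.01 in tdTomato-only and −0.18 in double-positive cells. Cox4i2, the isoform known from lung and hypoxia, had −0.35 in double-positive and −0.43 in tdTomato-only cells. Cox8b, the striated muscle isoform, lay just above the background limit, with spot medians of 87.7 in double-positive against 88.7 in EGFP-only cells, and 90.6 in tdTomato-only against 85.8 in EGFP-only cells. Cox7a1, Cox7b2 and Ndufa4l2 were not analysed here.

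**Figure D3:**
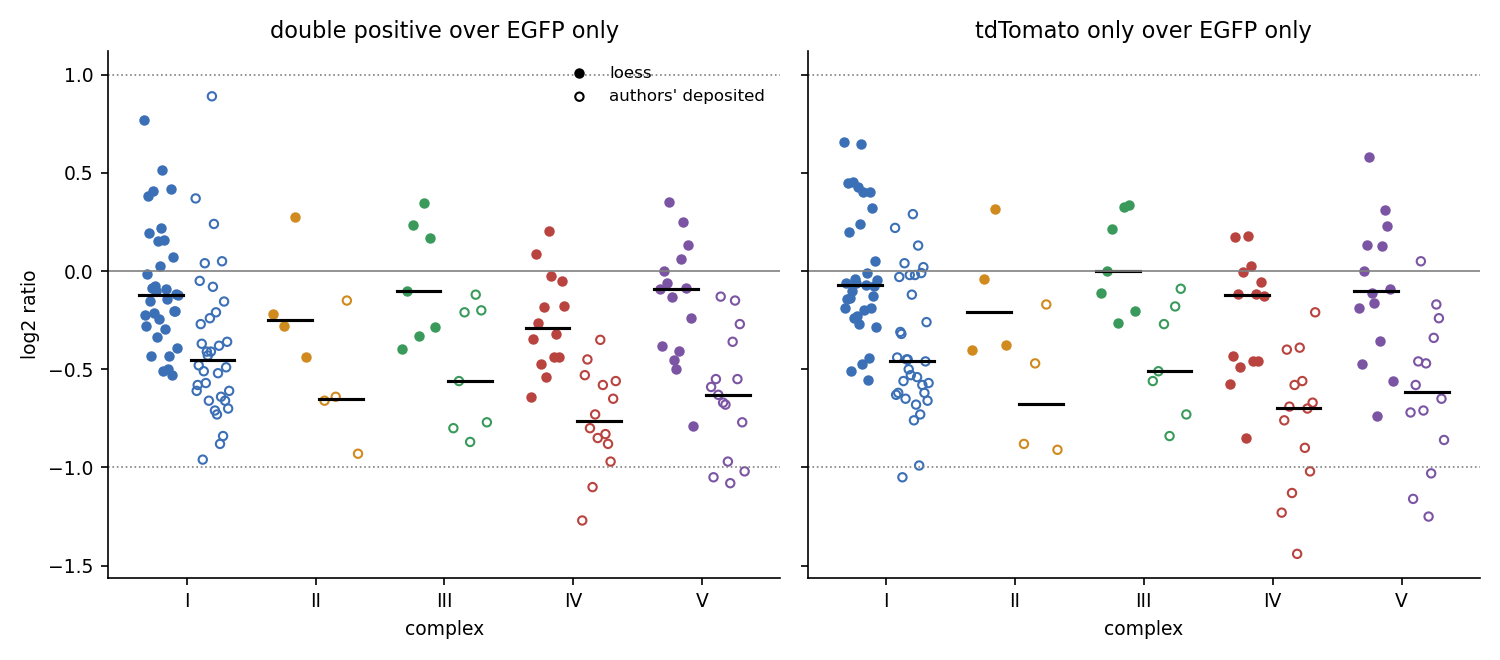
Log2 ratio of each measured subunit gene in double-positive (left) and tdTomato-only (right) over EGFP-only cells, by complex. Filled points are loess ratios and open points the authors' deposited ratios, black bars are medians and dotted lines mark 2-fold; no filled point passes a dotted line, and the open points of every complex have a lower median than the filled ones.

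Complex V, the ATP synthase, had medians of −0.09 in double-positive and −0.10 in tdTomato-only cells. In its catalytic head, Atp5a1, the alpha subunit, had −0.09 in double-positive and −0.19 in tdTomato-only cells, and Atp5b, the catalytic beta subunit, −0.38 in double-positive and −0.47 in tdTomato-only cells. Atp5b had spot medians of 9054 in double-positive against 26098 in EGFP-only cells, and 9593 in tdTomato-only against 26232 in EGFP-only cells. It also had the widest gap between settings on the second array, with a deposited ratio of −1.16 against −0.47 after loess. Atp5e, the small epsilon subunit of the central stalk, was the highest of the complex, at 0.35 in double-positive and 0.58 in tdTomato-only cells. Its deposited ratios were −0.13 in double-positive and 0.05 in tdTomato-only cells.

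In the peripheral stalk, which holds the head in place, Atp5o (the oligomycin-sensitivity-conferring protein) had the lowest loess ratio of all members in double-positive cells. For Atp5o the spot medians were 363 in double-positive against 879.8 in EGFP-only cells, and 442 in tdTomato-only against 879.9 in EGFP-only cells. The ratios were −0.79 in double-positive (1.73-fold lower) and −0.56 in tdTomato-only cells. The other stalk genes lay closer to 0 or above it. Atp5f1, the b subunit, had −0.13 in double-positive and −0.11 in tdTomato-only cells, Atp5h, the d subunit, 0.06 in double-positive and 0.13 in tdTomato-only cells, and Atp5j, the coupling factor subunit, 0.25 in double-positive and 0.31 in tdTomato-only cells. As deposited, all 15 genes of the complex lay below 0 in double-positive cells, as did 13 of 14 in tdTomato-only cells. Over all genes the deposited share below 0 was 51.6% in double-positive and 53.9% in tdTomato-only cells. Among the small membrane subunits, Atp5k had 0.13 in double-positive and 0.23 in tdTomato-only cells, and Atp5l −0.24 in double-positive and −0.09 in tdTomato-only cells.

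The c subunit, which forms the rotor ring, is encoded by Atp5g1, Atp5g2 and Atp5g3, whose mature proteins are identical and whose import sequences differ. All 3 were below 0 on both arrays. Their order differed between the populations, and in double-positive cells it also changed with the normalization. Atp5g1 had spot medians of 704 in double-positive against 1476 in EGFP-only cells, and 941 in tdTomato-only against 1538 in EGFP-only cells. Atp5g2 had 3085 in double-positive against 8313 in EGFP-only cells, and 2954 in tdTomato-only against 8484 in EGFP-only cells. Between the Cy3 channels Atp5g1 was thus brighter in tdTomato-only than in double-positive cells, while Atp5g2 was slightly dimmer in tdTomato-only cells. The loess ratios were −0.45 in double-positive and −0.16 in tdTomato-only cells for Atp5g1, −0.50 in double-positive and −0.74 in tdTomato-only cells for Atp5g2, and −0.41 in double-positive and −0.36 in tdTomato-only cells for Atp5g3. As deposited, Atp5g1 was the highest in both populations, at −0.68 in double-positive and −0.47 in tdTomato-only cells. Atp5g2 then had −0.97 in double-positive and −1.25 in tdTomato-only cells, and Atp5g3 −1.08 and −1.03.

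Since Atp5g1 and Atp5g2 encode 1 mature protein and lay on opposite sides of 0 between tdTomato-only and double-positive cells, the 250 bases before each annotated start are shown, from RefSeq on build GRCm38.p6, 5′ to 3′ along the minus strand, which both genes use. The Atp5g1 window is chr11:96075632-96075881 and the Atp5g2 window chr15:102671048-102671297. Capitals mark the motif of nuclear respiratory factor 1, CGCATGCG, a factor known to act on many of these genes.
Atp5g1: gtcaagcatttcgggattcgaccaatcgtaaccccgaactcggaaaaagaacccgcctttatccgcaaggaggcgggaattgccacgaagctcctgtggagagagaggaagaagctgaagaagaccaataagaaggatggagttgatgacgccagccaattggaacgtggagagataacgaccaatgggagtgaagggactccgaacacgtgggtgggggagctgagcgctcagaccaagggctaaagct
Atp5g2: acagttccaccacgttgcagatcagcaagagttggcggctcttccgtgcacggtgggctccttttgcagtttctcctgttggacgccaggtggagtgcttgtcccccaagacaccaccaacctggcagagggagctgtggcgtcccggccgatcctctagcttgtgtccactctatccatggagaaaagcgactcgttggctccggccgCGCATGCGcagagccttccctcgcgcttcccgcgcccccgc
The Atp5g2 window holds 1 such motif and the Atp5g1 window none. No motif of the ETS family (CCGGAAG, the core that GABP binds) or of YY1 (ATGGCGGC) was found in either window. A match describes letters and does not show that a factor binds.

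Across the members, RefSeq promoter windows of 300 bases, from 250 before to 50 after a start, were found for 65 genes, 70 windows in all, and the other 15 genes were not matched. The 3 motifs were searched on both strands, and CGCATGCG is its own reverse complement. Matches of different motifs were counted separately and may overlap. CGCATGCG stood in 9 of 70 member windows (12.9%), against 2.52% of 21263 windows of protein-coding genes and 1.87% of all 32851 windows. These 9 belonged to Ndufa8, Ndufa11, Uqcr, Uqcrc1, Cox6a1, Atp5g2, Atp5j, Atp5k and Atp5l. In double-positive over EGFP-only cells the loess ratios of these genes ran from −0.50 (Atp5g2) to 0.25 (Atp5j), so genes with the motif lay on both sides of 0. In tdTomato-only over double-positive cells they ran from −0.24 (Atp5g2) to 0.22 (Ndufa11). There Atp5g2 and Cox6a1 (−0.01) were below 0 and the other genes with the motif above it. A link between the motif and the ratios was not tested. CCGGAAG stood in 16 windows (22.9%), against 11.6% of protein-coding and 8.86% of all windows. ATGGCGGC stood in 7 windows of the 70, against 3.02% of protein-coding and 2.24% of all windows. At least 1 of the 3 was in 27 windows (38.6%), against 15.8% of protein-coding and 12.0% of all windows.

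The genes outside the 5 complexes were Ndufaf1, at −0.40 in double-positive and −0.38 in tdTomato-only cells, Cox4nb, at −0.17 in double-positive and −0.29 in tdTomato-only cells, and Atp5s, at 0.08 in double-positive and 0.04 in tdTomato-only cells.

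The populations that carried tdTomato were then compared through the EGFP-only RNA on both arrays, by subtracting the double-positive array's log2 ratio from that of the tdTomato-only array. Both of these populations carried Cy3. Of 75 measured members, 0 were at least 2-fold higher in tdTomato-only cells (0.813% of all 11311 genes) and 0 at least 2-fold lower (0.274% of all genes). At 1.5-fold there were likewise 0 higher (2.67% of all genes) and 0 lower (1.8% of all genes). The members' median was 0.05, against −0.02 over all genes, with a range from −0.31 to 0.34. Below 0 lay 25 members (33.3%), against 54.3% of all genes, and in the deposited ratios 36 (48.0%), against 59.1% of all genes. The deposited median was 0.02, against −0.08 over all genes. Within the brightest class the 65 members had a median of 0.06 and the 2197 other genes −0.03 after loess, and 0.02 and −0.10 as deposited.

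The repeated EGFP-only channel gives a rough technical scale for these small values. The SD used is that of the difference in this channel's log2 level between the arrays. The ratios also carry the Cy3 channels, which were not repeated, so their own technical spread is unknown. Over the 76 member probes measured on both arrays it differed with an SD of 0.086, and by at most 0.33. Above 2 of these SDs (0.17) in tdTomato-only over double-positive cells lay 13 members, 17.3% of those measured, against 16.3% of all genes, and below −0.17 lay 3, 4.0%, against 21% of all genes. The other 59 lay within 2 SD. The share above was thus near that of all genes, and the share below was smaller than that of all genes. The spread between animals is unknown.

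Ndufs4 had the highest ratio of tdTomato-only over double-positive cells, 0.34 after loess and 0.26 as deposited. It was followed by Atp5g1 at 0.29, Cyc1 at 0.29 and the accessory complex I subunit Ndufb10 at 0.28. Ndufs5, another accessory subunit of complex I, had 0.25 and Ndufb7 0.24, with both probes of Ndufs5 above 0. Sdhb had 0.24, Atp5e 0.23, Atp5o 0.23 and Ndufa11 0.22. Cox7b, Atp5d and Cox6b1 had 0.20, 0.19 and 0.18. All complexes were thus represented among the 13. Cox6b2 was the lowest, at −0.31 after loess and −0.59 as deposited, from a dim probe. Atp5g2 and Sdha were the other genes beyond −0.17, at −0.24 and −0.18. At the lower end within 2 SD stood Ndufa12 (−0.12) and Ndufa1 (−0.11) of complex I, Cox4i2 (−0.09) of complex IV, and Atp5a1 (−0.10) and Atp5b (−0.09) of the ATP synthase head. At the upper end within 2 SD stood Uqcrfs1 (0.17) of complex III and Cox5b (0.14), the zinc-binding subunit of complex IV.

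By complex the median of tdTomato-only over double-positive cells was 0.04 for complex I, 0.05 for complex II, 0.08 for complex III, 0.02 for complex IV and 0.06 for complex V. Between the same populations stem cell markers had a median of −0.77, with all 7 measured below 0, and goblet cell markers 1.05, with all 5 above 0. The lymphocyte genes Gzma and Ccl5 were at −1.75 and −1.56.

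**Figure D4:**
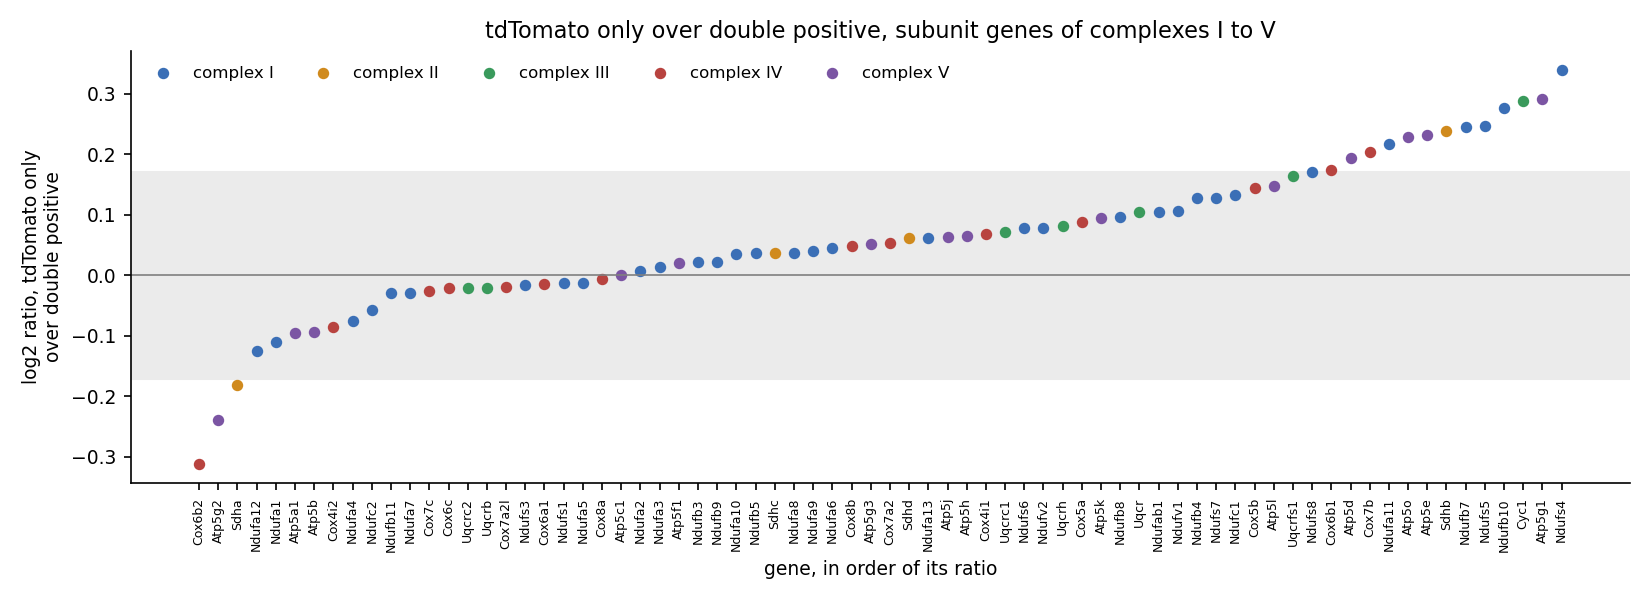
Log2 ratio of tdTomato-only over double-positive cells for each measured subunit gene, in order of its value and coloured by complex. The grey band spans 2 SD (0.17) of the repeated EGFP-only channel over member probes, which is not the spread of the ratios. The 13 genes above the band and the 3 below it are those named in the text. Ndufs4 is the highest at 0.34 and Cox6b2 the lowest at −0.31.

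The genes that build and supply the chain were set beside its subunits, in lists taken by known function. Assembly factors, proteins that build the complexes without staying in them, had a loess median of −0.22 in double-positive and −0.21 in tdTomato-only cells over 33 measured genes of 46 listed, with 27 and 25 below 0. Of all genes, 51.1% lay below 0 in double-positive and 51.8% in tdTomato-only cells. Ndufaf1 is in this list and is also counted among the members. After loess no assembly factor was at least 2-fold higher, against 5.1% of all genes in double-positive and 6.15% in tdTomato-only cells. Likewise none was at least 2-fold lower, against 0.34% of all genes in double-positive and 1.19% in tdTomato-only cells. The same held for the subunits after loess. Acad9, a complex I assembly factor related to acyl-CoA dehydrogenases, was the lowest, at −0.75 in double-positive and −0.84 in tdTomato-only cells. As deposited Acad9 was at −0.99 in double-positive cells and past 2-fold in tdTomato-only cells, at −1.19. Cox17, the copper chaperone of complex IV, was the highest, at 0.92 in double-positive and 0.92 in tdTomato-only cells. The spot medians of Cox17 were 1266 in double-positive against 1059 in EGFP-only cells, and 1285 in tdTomato-only against 995 in EGFP-only cells. Cox20, a chaperone of a subunit encoded by mitochondrial DNA, had 0.71 in double-positive and 0.60 in tdTomato-only cells. In tdTomato-only over double-positive cells the list's median was 0.01, and Cox19 was the highest at 0.33.

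Cycs, the cytochrome c that links complexes III and IV, had higher ratios than most subunits, at 0.45 in double-positive and 0.73 in tdTomato-only cells. Cycs had spot medians of 1274 in double-positive against 1498 in EGFP-only cells, and 1636 in tdTomato-only against 1499 in EGFP-only cells. Atpif1, the inhibitor protein of ATP synthase, had −0.16 in double-positive and −0.11 in tdTomato-only cells.

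Regulators of nuclear respiratory genes had medians of −0.08 in double-positive and −0.10 in tdTomato-only cells over 14 measured genes of 16 listed, with values on both sides of 0. Tfb2m, a factor for transcription of mitochondrial DNA, was the lowest, at −1.07 in double-positive and −0.96 in tdTomato-only cells, and the only gene of this list past 2-fold, in double-positive cells. For Tfb2m the spot medians were 185 in double-positive against 479 in EGFP-only cells, and 235 in tdTomato-only against 565 in EGFP-only cells. Tfam, which packages mitochondrial DNA, had −0.42 in double-positive and −0.61 in tdTomato-only cells, and Nrf1, the gene of nuclear respiratory factor 1, −0.55 in double-positive and −0.41 in tdTomato-only cells. Gabpa, the DNA-binding subunit of GABP, had 0.42 in double-positive and 0.37 in tdTomato-only cells. Esrra, a nuclear receptor of oxidative genes, had 0.18 in double-positive and 0.45 in tdTomato-only cells, and its coactivator Ppargc1a 0.20 in double-positive and 0.34 in tdTomato-only cells. Yy1 lay on opposite sides of 0, at 0.20 in double-positive and −0.28 in tdTomato-only cells.

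Among the inner membrane carriers Slc25a4, the ADP/ATP carrier best known from heart and muscle, was the lowest, at −1.13 in double-positive and −1.50 in tdTomato-only cells, with spot medians of 284 in double-positive against 844 in EGFP-only cells, and 232 in tdTomato-only against 818 in EGFP-only cells. Slc25a5, the much more widely expressed ADP/ATP carrier, had −0.08 in double-positive and −0.05 in tdTomato-only cells. Ucp2, an uncoupling protein family member, had 0.03 in double-positive and 0.34 in tdTomato-only cells.

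The citric acid cycle enzymes had medians of −0.08 in double-positive and −0.20 in tdTomato-only cells over 13 of 14 genes, with Idh3b at −0.75 in double-positive and −0.51 in tdTomato-only cells and Sucla2 at 0.63 in double-positive and 0.79 in tdTomato-only cells. Mitochondrial ribosomal proteins had medians of −0.27 in double-positive cells, over 75 of 77 genes, and −0.24 in tdTomato-only cells, over 76. Cytosolic ribosomal proteins had −0.43 in double-positive and −0.59 in tdTomato-only cells over 56 of 59 genes, and −0.23 in tdTomato-only over double-positive cells, against 0.05 for the respiratory members.

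**Figure D5:**
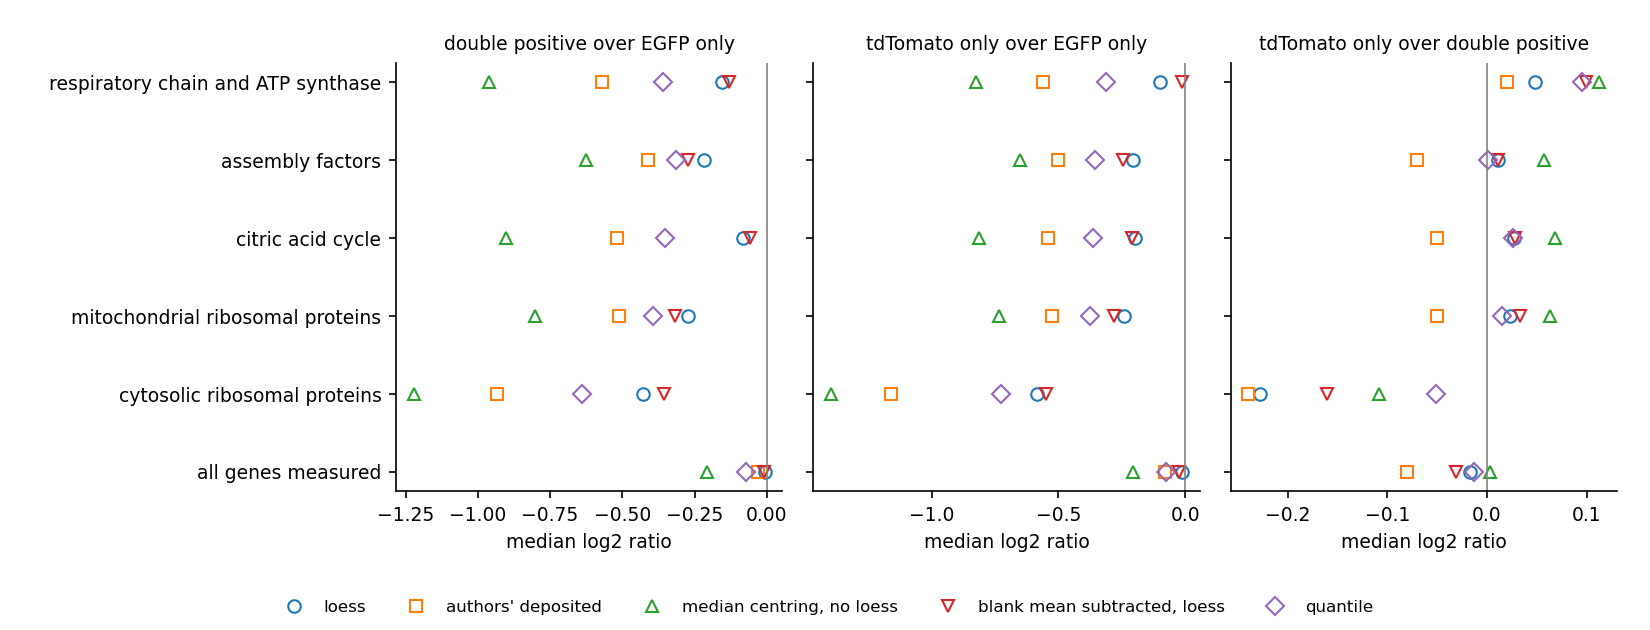
Median log2 ratio of the respiratory chain and ATP synthase members and of 4 other gene lists, beside all measured genes, in the 3 comparisons and under 5 ways of normalizing the arrays (symbols). Against EGFP only every list median stays below 0 while its size changes with the method, from −0.96 to −0.13 for the members in double-positive cells; in tdTomato-only over double-positive cells the members stay between 0.02 and 0.11.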

How the data were processed

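Amplified amino allyl RNA of the sorted cells was labelled with Cy3 or Cy5 for Toray arrays read in both colours, per the labels' protocols. The authors deposited, per the file headers, the median intensity of each spot in both channels, without background subtraction judging from the blank spots. The authors' deposited log2 ratios set the population in Cy3 over the EGFP-only one, per the labels. On each array they were matched within 0.02 for 99.99% of probes by subtracting a mean of the blanks (5% trimmed at either end) and centring the log2 ratio. Both columns have a median of 0, so their scale, centring and direction are known.

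Here intensities were corrected with normexp (offset 50, no local background) and normalized by loess within each array, giving no weight to controls and to spots with a quality mark, in limma 3.58.1 under R 4.3.3. The steps were tested on simulated data. A probe counted as above background when brighter than the mean plus 2 SD of the 2736 blank spots. A gene's probes above background were averaged. For a probe above background in 1 channel alone, a bound was computed from loess and Aquantile levels, in which the dim side takes its own level or the lowest level above background, whichever is higher. This is open to dye bias. With 1 array for each comparison no test was made, and genes were counted at 2-fold, 1.5-fold or by sign. The number of arrays limits the precision.

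The platform's annotation named the genes. It gave 16631 probes 1 gene each and left 6842 unnamed here. Symbols were matched to RefSeq GRCm38.p6 (12622 current, 3947 updated, 59 ambiguous and 3 unmatched), and 4 member symbols have been replaced since. Atoh1 probes were not analysed here. Genes named were the 3 highest and 3 lowest of each complex in each comparison, all of complex II, every member past 2-fold, members above background in 1 channel alone, members whose probes lay over 0.5 apart (none did), paired isoforms, and the widest gap between deposited and loess ratios on each array. Some others were named as examples after their values were seen. The members and lists were chosen with earlier results of these data known.

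Alternatives were the deposited ratios, median centring without loess, blank subtraction before loess, quantile normalization, no filter on dim probes, and the brightest probe of a gene. Leaving out the 3 genes outside the complexes and a dimness limit from trimmed blanks were added after seeing the data.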

Additional observations from a re-analysis of the deposited data

How the results depend on the processing

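No member was at least 2-fold higher in any comparison under any alternative tried. In double-positive over EGFP-only cells the members' median of −0.15 moved to −0.57 as deposited by the authors, −0.96 when arrays were median-centred without loess and −0.36 with quantile normalization. The 0 members at least 2-fold lower became 5 as deposited (420 of 11774 genes in all) and 32 after median centring (740 of all genes). In tdTomato-only over EGFP-only cells the median of −0.10 moved to −0.56 as deposited, −0.82 with median centring, −0.31 with quantile normalization and −0.013 with the blank mean subtracted before loess. There the count at least 2-fold lower became 8 as deposited (828 of 11381 genes in all), 16 after centring on the median (850 of all genes) and 1 after blank subtraction (593 of all genes). Median centring without loess also moved the median of all genes, from −0.01 to −0.21 in double-positive over EGFP-only cells. With quantile normalization the genes other than members were also below 0 there. Their median was −0.05 in the dimmest of the 5 brightness classes and −0.13 in the brightest. The cause of these moves was not tested. In tdTomato-only over double-positive cells the members' median of 0.05 was 0.02 as deposited, 0.11 after median centring, 0.10 after blank subtraction and 0.10 with quantile normalization. Keeping dim probes, taking the brightest probe, leaving out the genes outside the complexes or using the other dimness limit gave medians from −0.15 to −0.14 in double-positive over EGFP-only cells, from −0.10 to −0.07 in tdTomato-only over EGFP-only cells and from 0.04 to 0.05 in tdTomato-only over double-positive cells. No paired analysis was possible because each population was 1 sorted sample. No library could be left out for the same reason.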
